A study of Homo sapiens with 6 samples.

Results

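The kinesins and kinetochore genes described here are the genes whose array symbol starts with KIF and a digit, with CENP and a letter, or with CDCA and a digit. They number 64 of the 14884 named genes on the arrays, 1 row per gene. By their textbook roles they were sorted into 13 mitotic kinesins, 15 centromere and kinetochore genes of the CENP series, 7 CDCA genes, 15 transport kinesins, 11 other kinesins, 2 other CENP genes and KIF9-AS1, an antisense RNA. CENPE and CENPF were not analysed here. Transcript levels were read on 6 Affymetrix arrays of A549, an established human lung adenocarcinoma line, 1 array per group. After 24 h of growth at 37 °C, the groups were untreated cells (control), cells given 3 Gy of X-rays at 37 °C, cells heated for 1 h to 41.5 °C or to 44 °C, and cells heated to either temperature and irradiated with 3 Gy straight afterwards. Singly treated cells were kept for 3 h at 37 °C before RNA was taken. That interval is not stated for the combined treatments, and the control has no stated time beyond the growth period.

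Kinesins are motor proteins that use ATP to move along or reshape microtubules. Mitotic kinesins build the spindle, move chromosomes and finish cytokinesis, whereas transport kinesins carry vesicles, organelles and RNA in cells of any cycle stage. CENP proteins mark the centromere and hold the kinetochore on it, and several CDCA proteins act in chromosome segregation. Many mitotic genes are transcribed periodically, with a peak in G2 and mitosis, and cells with damaged DNA can halt before mitosis at the G2 checkpoint. In bulk RNA, fewer cells in G2 or mitosis and less transcript per cell cannot be told apart.

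All values are log2 signals, as the authors normalized them, so a difference of 1 is a 2-fold change. Of the 64 genes, 53 had a mean signal above the median of all genes, 5.39, including 12 of 13 mitotic kinesins, 12 of 15 transport kinesins and 5 of 11 other kinesins. HSPA1A, an inducible HSP70 chaperone, followed the heat labels, at 10.38 in the control and 10.11 after radiation, 12.02 and 12.08 at 41.5 °C without and with radiation, and 12.71 and 12.74 at 44 °C. Of 5 measured epithelial markers, 4 lay above the median of all genes, and their summed log2 signal was between 11.62 and 11.73 on the 6 arrays. The 3 measured endothelial markers summed to between 5.10 and 5.38, the 2 fibroblast markers to between 3.25 and 3.78, and the 1 leukocyte marker, CD14, lay between 4.89 and 5.81. Of the endothelial and fibroblast markers 0 lay above the median of all genes, while CD14, with a mean of 5.41, lay just above it. The lowest epithelial marker had a mean of 4.43.

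The first question was whether radiation changed these genes at each temperature. With 1 array per group, each temperature gives a difference of 2 single arrays and no test. At 37 °C the 13 mitotic kinesins were all lower on the irradiated array, by 0.15 to 0.67 with a median of -0.35, and at 41.5 °C all 13 were lower again, by 0.15 to 1.17 with a median of -0.59. At 44 °C, 5 were lower and 8 higher, with a median of 0.11. The 15 transport kinesins had medians of -0.076, -0.059 and 0.055 at the 3 temperatures, next to medians of -0.002, -0.002 and 0.009 over all genes.

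**Figure D1:**
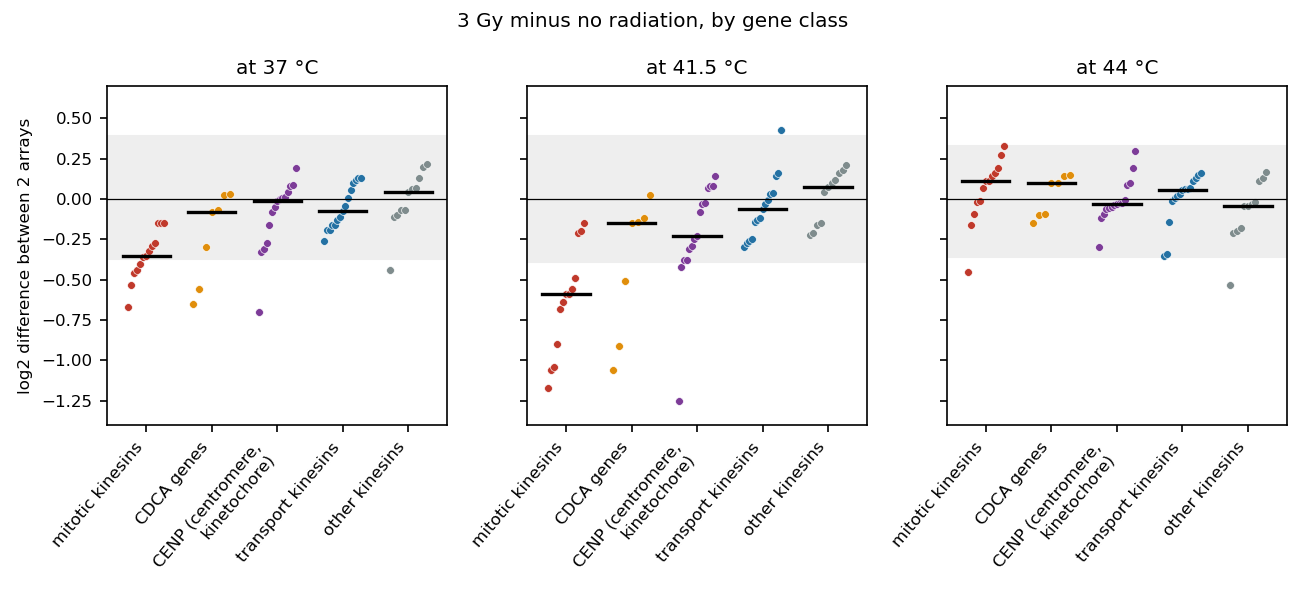
Log2 difference of the irradiated minus the non-irradiated array at 37, 41.5 and 44 °C for each gene (points), with class medians (black bars) and the range from the 5th to the 95th percentile of all 14884 genes (grey). The mitotic kinesins lie below 0 at 37 and 41.5 °C, with medians of -0.35 and -0.59, and straddle 0 at 44 °C, while the transport kinesins straddle 0 in each pair.

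CENPA, the histone H3 variant that marks centromeres, had the lowest value of the 64 genes in both of the cooler pairs. Its level was 7.77 in the control and 7.08 after radiation, 7.64 at 41.5 °C and 6.39 with radiation added, and 7.65 and 7.62 at 44 °C. The irradiated arrays thus stood low at 37 and 41.5 °C, and the 44 °C pair was close to the non-irradiated arrays. At 41.5 °C its difference, -1.25, was the 11th lowest of all 14884 genes. CDCA8, or borealin, a subunit of the chromosomal passenger complex that corrects chromosome attachment, was at 7.42 and 6.77 at 37 °C, 7.47 and 6.41 at 41.5 °C, and 7.04 and 7.18 at 44 °C, without and with radiation. CDCA2, also known as Repo-Man, which targets a phosphatase to chromatin as cells leave mitosis, was at 8.03 and 7.47, 8.03 and 7.12, and 7.85 and 8.0 in the same order. In both genes the 2 cooler irradiated arrays were the lowest of the 6.

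Among the kinesins, KIF18A, which damps chromosome movement at the plus ends of microtubules, had the widest range over the arrays, 1.51. It was at 7.74 and 7.21 at 37 °C, 7.40 and 6.23 at 41.5 °C, and 7.34 and 7.41 at 44 °C, without and with radiation. KIF14, which acts in cytokinesis, was at 8.06 and 7.60, 7.89 and 6.82, and 8.14 and 8.12. KIF23, the motor of the centralspindlin complex of the midzone, was at 9.08 and 8.72, 9.30 and 8.41, and 8.99 and 8.90. Each of these 3 genes had its lowest level on the irradiated 41.5 °C array and its second lowest on the irradiated 37 °C array.

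KIF11, the Eg5 motor that pushes spindle poles apart, was at 9.72 and 9.43 at 37 °C, 9.50 and 8.87 at 41.5 °C, and 9.41 and 9.55 at 44 °C. KIF2C, a microtubule depolymerase at centromeres, was at 7.40 and 6.96, 7.17 and 6.49, and 6.96 and 7.23. For these motors the 44 °C array without radiation was as low as the irradiated 37 °C array. KIF18B, a depolymerase of astral microtubules, was at 8.26 and 7.59, 8.35 and 7.76, and 8.02 and 7.87, and was lower with radiation in all 3 pairs. KIF20A, which brings the passenger complex to the midzone, was at 8.06 and 7.79, 8.18 and 7.14, and 7.79 and 7.78.

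**Figure D2:**
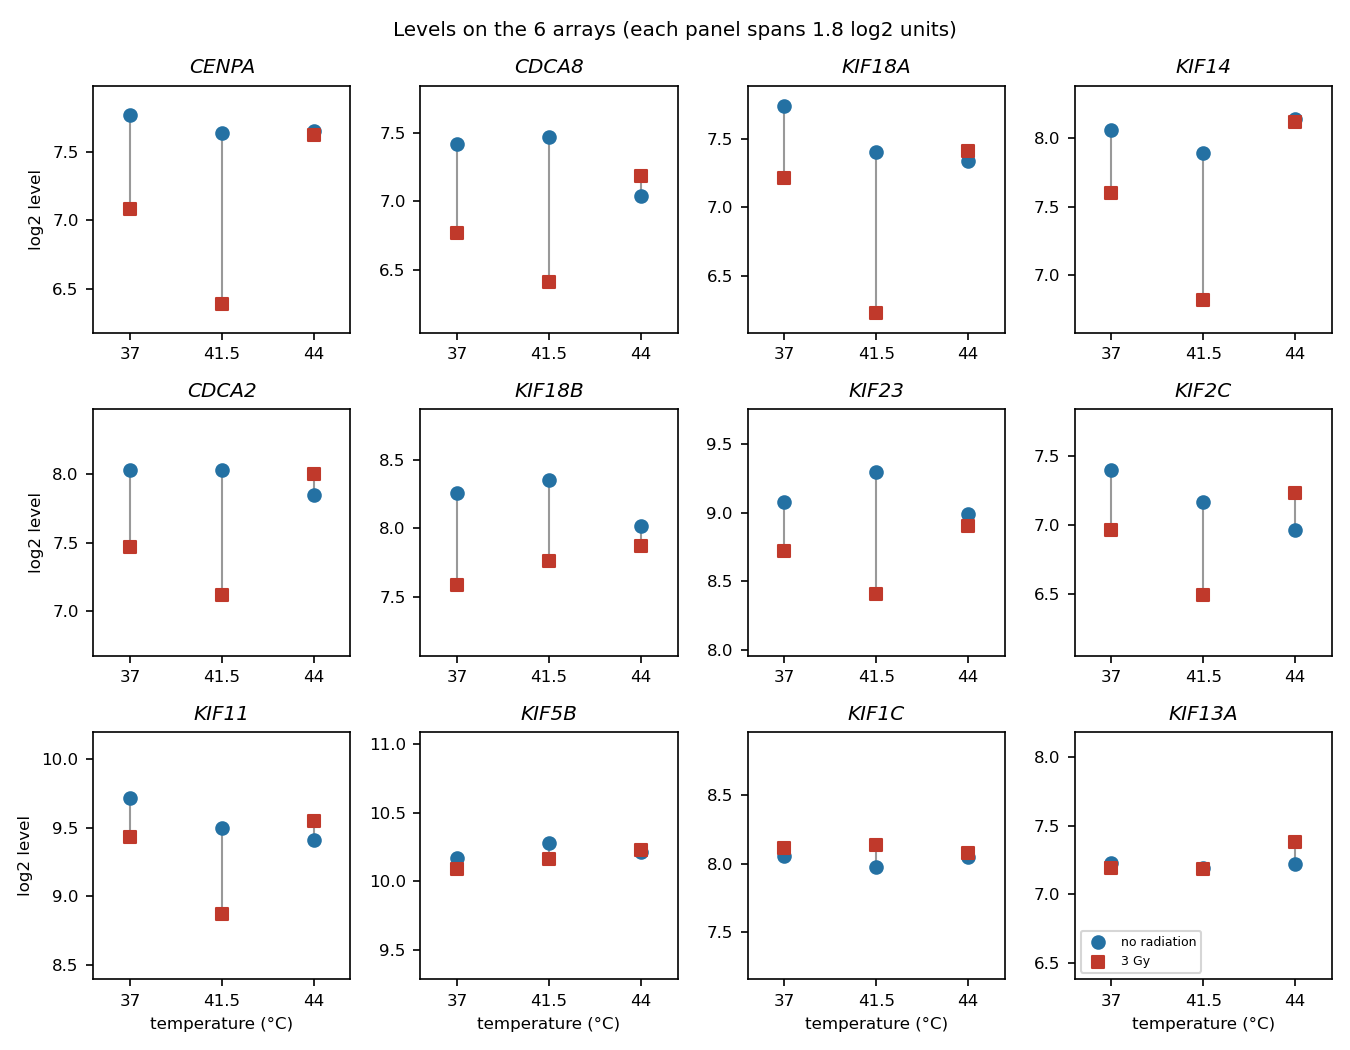
Log2 level on each of the 6 arrays against temperature, without radiation (blue circles) and with 3 Gy (red squares), for the 9 genes that passed the test of radiation at 37 and 41.5 °C and for 3 transport kinesins. Each panel spans the same number of log2 units. In the 9 genes the squares lie below the circles at 37 and 41.5 °C and within 0.27 of them at 44 °C, and for KIF5B, KIF1C and KIF13A the 2 symbols stay close at each temperature.

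At 1.5-fold or more, 3 of the 64 genes were lower with radiation at 37 °C, against 1.48% of all genes, 11 at 41.5 °C, against 1.66%, and 0 at 44 °C, against 1.07%. None was higher by that much, against 1.55%, 1.65% and 0.752% of all genes. The 3 at 37 °C were CENPA, CDCA8 and KIF18B. The 11 at 41.5 °C were those 3 with CDCA2, KIF2C, KIF11, KIF14, KIF18A, KIF20A, KIF20B and KIF23, so 8 of the 13 mitotic kinesins and 0 of the 15 transport kinesins. At a share of 1.66% over all genes, 0 of 15 does not set the transport kinesins apart from other genes.

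A test came from an additive model in limma, with a term for temperature and a term for radiation, which gives 3 pairs of arrays with and without radiation. Genes were called at a Benjamini-Hochberg adjusted p under 0.05 over all 14884 genes. Over the 3 temperatures 0 of 64 genes were called for radiation, against 0% of all genes. At an unadjusted p under 0.05 in the same fit, 13 of the 64 were lower and 0 higher, which is 20.3% against 4.92% of all genes in either direction. The largest value was that of CENPA, -0.66 ± 0.17 (SE, 3 pairs, adjusted p = 0.71). In this model a gene that responds at 37 and 41.5 °C and not at 44 °C has a large residual. Without either 44 °C array, the other is fitted exactly by its temperature term, and radiation is read from the 37 and 41.5 °C pairs alone. The 9 genes then called lower are the 9 given next. The next model uses the same pairs and gives the same differences, so these calls are not a separate check of it.

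A second model gave radiation 1 term for the pairs at 37 and 41.5 °C and another for 44 °C. Its 1 residual degree of freedom is the difference between the cooler pairs. With it 9 of the 64 genes were called lower and 0 higher, which is 14.1% of them, while 0.316% of all genes were called lower and 0.269% higher. Of the 47 genes called lower in all, these were 9. They were 6 of the 13 mitotic kinesins, 2 of the 7 CDCA genes, 1 of the 15 CENP genes and 0 of the 15 transport kinesins. With so low a share called over all genes, 0 of 15 does not set the transport kinesins apart from other genes. CENPA fell by 0.97 ± 0.12 on the log2 scale, or 1.97-fold (SE, 2 pairs of arrays, adjusted p = 0.0025). CDCA8 fell by 0.85 ± 0.11 (adjusted p = 0.00339), KIF18A by 0.85 ± 0.13 (adjusted p = 0.00835), KIF14 by 0.76 ± 0.12 (adjusted p = 0.0105) and CDCA2 by 0.73 ± 0.10 (adjusted p = 0.00418). KIF18B fell by 0.63, KIF23 by 0.63, KIF2C by 0.56 and KIF11 by 0.46 (adjusted p from 0.00411 to 0.0488). The ± values of this and the other fits are moderated SEs, with the variance drawn toward that of genes of like signal. Here 11.4 prior degrees of freedom outweigh the 1 residual one, so they do not measure the spread between the pairs. The separate term for 44 °C was chosen after earlier results of these data showed a different radiation response there. The p-values of this model are therefore not independent of that choice. At 37 and 41.5 °C the differences were -0.70 and -1.25 for CENPA, -0.53 and -1.17 for KIF18A, and -0.46 and -1.06 for KIF14. Those of KIF18B, -0.67 and -0.59, were closer. With variance moderation that ignored the intensity trend, 0 of the 64 and 0 of all genes were called (adjusted p of CENPA 0.465), and the call of KIF11 was lost under median centring (adjusted p = 0.0524) and with the mean of all features of each gene (adjusted p = 0.0668).

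The other mitotic kinesins had negative values that did not pass in the main fit. KIF20A was at -0.66 ± 0.14 (adjusted p = 0.0676), and its pair differences were unequal, -0.27 at 37 °C and -1.04 at 41.5 °C. After a further quantile normalization KIF20A passed in limma, at -0.64 (adjusted p = 6.7e-04). The pairs of called genes such as KIF18A, KIF14 and CENPA were unequal too. KIF15, which backs up KIF11 on the spindle, was at -0.42, KIF20B at -0.37, the chromosome-arm motors KIF4A and KIF22 at -0.31 and -0.15, and KIF2B at -0.26. KIF4B, at -0.36, is a near-identical retrocopy of KIF4A, and the signals of this pair may not be separable. The median of the class was -0.46, and -0.51 without KIF4B.

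CENPA was the only CENP gene of 15 that passed this test in the main fit. After a further quantile normalization CENPI passed too, at -0.35 (limma, adjusted p = 0.0427). The constitutive centromere proteins that hold the kinetochore on CENPA chromatin had small values, from -0.36 for CENPI (adjusted p = 0.123) and -0.35 for CENPO (adjusted p = 0.172) to 0.084 for CENPQ, and the median of the 15 genes was -0.11. CENPI was at 8.17 and 7.86 at 37 °C and 7.90 and 7.48 at 41.5 °C, and at 7.91 and 7.89 at 44 °C. Of the CDCA genes, CDCA3, which promotes entry into mitosis, was at -0.40 (adjusted p = 0.153) and CDCA5, or sororin, which protects cohesin, at 0.026. CDCA4, CDCA7 and CDCA7L, which are regulators of transcription, had pair differences from -0.083 to 0.033 at 37 °C and from -0.15 to -0.12 at 41.5 °C.

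Transport kinesins gave 12 negative and 3 positive values in this test, between -0.25 and 0.22 with a median of -0.068, and none passed. KIF5B, the ubiquitous heavy chain of conventional kinesin, was at 10.17 and 10.09 at 37 °C, 10.28 and 10.16 at 41.5 °C, and 10.21 and 10.23 at 44 °C, a value of -0.10 ± 0.08 (adjusted p = 0.922). KIF1B, a mitochondrial and vesicle motor, was at 7.52 and 7.40, 7.26 and 7.23, and 7.40 and 7.46, and KIF3A, of the kinesin-2 motor that builds cilia, at 7.02 and 6.85, 7.09 and 6.85, and 6.88 and 6.93. KIF13A, an endosome motor, was at 7.23 and 7.19, 7.19 and 7.18, and 7.22 and 7.38. On the features used, the range over all 6 arrays was at most 0.29 for these 4 genes. Over the 15 transport kinesins it ran from 0.16 for KIF1C to 0.61 for KIF13B. A second KIF1B feature, described below, was less stable, from 6.43 to 7.70. The other kinesins had a median of -0.014, with KIF2A, a depolymerase with roles in neurons and at spindle poles, at 7.86 and 7.99 at 37 °C and 7.73 and 7.57 at 41.5 °C. These class counts and medians are descriptions, since the classes were set with earlier results known, and no class was tested against another.

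**Figure D3:**
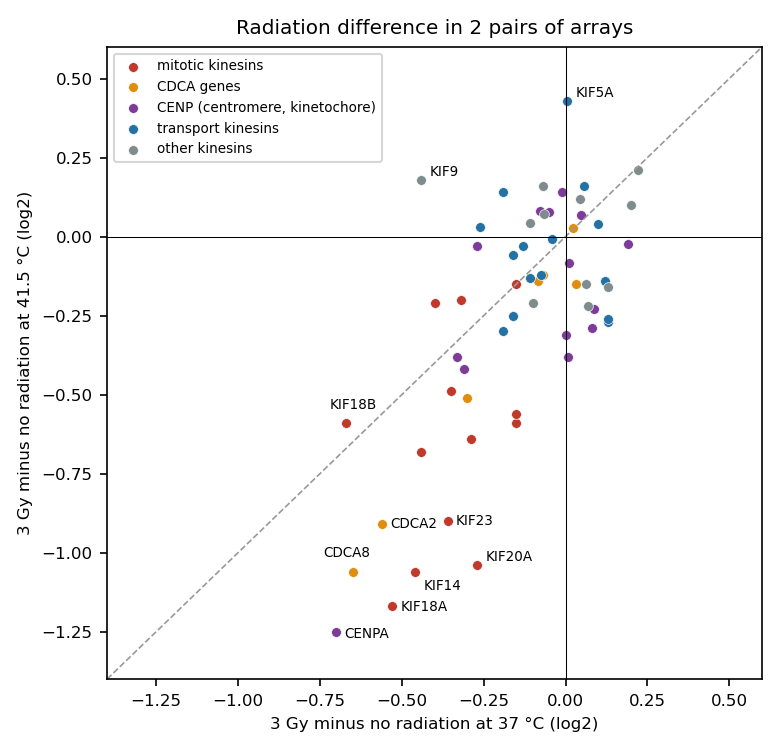
Log2 difference of irradiated minus non-irradiated at 37 °C (horizontal) and at 41.5 °C (vertical) for the genes of the 5 main classes, coloured by class. The dashed line marks equal differences. CENPA, KIF18A, KIF14, CDCA8 and KIF20A lie farthest down, with vertical values from -1.25 to -1.04, and KIF18B lies on the other side of the line from them.

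The difference at 41.5 °C was the larger one for 10 of 13 mitotic kinesins. A departure from additivity, that is, the radiation difference among heated cells less the one at 37 °C, had a median of -0.35 over this class at 41.5 °C, against 0.000 over all genes. It reached 1.5-fold or more below 0 for 3 of the 64 genes, KIF20A (-0.78), KIF18A (-0.64) and KIF14 (-0.60), and above 0 for 1, KIF9 (0.63). The shares of all genes were 4.01% and 3.66%, so the count of falls was near the background. At 44 °C the departure had a median of 0.45 over the mitotic kinesins and reached 1.5-fold above 0 for 5 genes, against 3.22% of all genes. These were CDCA8 (0.78), KIF2C (0.71), CDCA2 (0.70), CENPA (0.67) and KIF18A (0.60). Each departure combines 4 single arrays and carries no test, and the departures at both temperatures share the control and the irradiated array.

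Whether radiation acted differently at 44 °C was tested as the difference of the 2 radiation terms. The question came from earlier results of these same arrays, so the values below describe that pattern and are not independent support for it. None of the 64 genes passed, against 0.0336% of all genes, although 16 had an unadjusted p under 0.05 in limma, all in the positive direction, which is 25.0% against 6.11% of all genes. CDCA8 had a difference of 0.99 ± 0.19 (adjusted p = 0.201), CENPA of 0.95 ± 0.21 (adjusted p = 0.289) and KIF18A of 0.92 ± 0.22 (adjusted p = 0.357), and the transport kinesin KIF5B of 0.11 ± 0.14 (adjusted p = 0.979). The 44 °C side is 1 pair of arrays, assumed to vary like the others. After a further quantile normalization 5 of the 64 genes passed, against 0.269% of all genes: CDCA8 at 0.93 (adjusted p = 0.0109), CDCA2 at 0.82 (adjusted p = 0.0148), CENPA at 0.89 (adjusted p = 0.0167), KIF18A at 0.87 (adjusted p = 0.0346) and KIF2C at 0.78 (adjusted p = 0.0379).

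Levels that do not overlap between the 3 irradiated and the 3 other arrays give another view. All 3 irradiated arrays were lower for 7 of the 64 genes (10.9%, against 2.79% of all genes): CENPA, CENPI, CDCA3, KIF2B, KIF18B, KIF20A and KIF23. They were higher for 2, KIF1C and KIF25, against 2.71%. The gaps between the groups were small, at 0.003 for KIF20A, 0.009 for CENPI, 0.025 for CENPA, 0.091 for KIF23, 0.10 for CDCA3 and for KIF2B, and 0.16 for KIF18B. KIF2B lay below the median signal of all genes on each array.

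Most of the called genes with a known promoter window share short words in it, as do some genes not called. Promoter windows from 250 bases before to 50 bases after the start, from RefSeq on GRCh38.p14, were at hand for 53 of the 64 genes. They were searched on both strands for TTTGAA, the core of the cell cycle genes homology region that represses G2 and M genes outside those phases, for CCAAT, the box bound by NF-Y, and for the E2F-type words TTTGGCGC and TTTCGCGC. Both TTTGAA and CCAAT were found in 7 of the 8 called genes with a window (87.5%), in 8 of 13 mitotic kinesins (61.5%), 3 of 6 CDCA genes, 3 of 12 CENP genes and 1 of 12 transport kinesins (8.33%). Over all 53 genes with a window they were found in 15 (28.3%), of which 8 were not called, among them CDCA3, CENPC, KIF4A and KIF20B. Of all 27305 promoter windows, 6.08% held both, 15.4% held TTTGAA and 35.7% held CCAAT, and of the 10749 windows of genes on the arrays 4.86% held both. KIF2C was the called gene with neither. An E2F-type word was found in 0 of the 8 and in 1.18% of all windows. Such matches are descriptions and not shown to be sites. The 4 genes below had the largest falls with radiation, and KIF5B is the transport kinesin for comparison. Capitals mark the matches, and ATTGG and TTCAAA are CCAAT and TTTGAA on the other strand; in CDCA8 the TTTGAA and an ATTGG overlap by 1 base. The windows are chr2:26785806-26786105 (plus strand) for CENPA, chr1:37692266-37692565 (plus) for CDCA8, chr11:28108107-28108406 (minus) for KIF18A, chr1:200620702-200621001 (minus) for KIF14 and chr10:32056376-32056675 (minus) for KIF5B.
CENPA: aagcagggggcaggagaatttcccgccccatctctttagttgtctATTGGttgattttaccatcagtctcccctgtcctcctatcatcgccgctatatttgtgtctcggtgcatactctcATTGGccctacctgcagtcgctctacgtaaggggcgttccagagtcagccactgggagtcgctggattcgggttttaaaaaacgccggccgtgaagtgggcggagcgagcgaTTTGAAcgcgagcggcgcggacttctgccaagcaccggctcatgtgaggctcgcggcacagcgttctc
CDCA8: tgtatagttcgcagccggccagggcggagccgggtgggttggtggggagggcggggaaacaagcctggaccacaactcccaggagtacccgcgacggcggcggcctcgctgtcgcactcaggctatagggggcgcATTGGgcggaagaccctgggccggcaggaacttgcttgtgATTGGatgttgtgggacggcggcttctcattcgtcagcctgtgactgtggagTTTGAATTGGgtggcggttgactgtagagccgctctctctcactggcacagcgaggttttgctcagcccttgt
KIF18A: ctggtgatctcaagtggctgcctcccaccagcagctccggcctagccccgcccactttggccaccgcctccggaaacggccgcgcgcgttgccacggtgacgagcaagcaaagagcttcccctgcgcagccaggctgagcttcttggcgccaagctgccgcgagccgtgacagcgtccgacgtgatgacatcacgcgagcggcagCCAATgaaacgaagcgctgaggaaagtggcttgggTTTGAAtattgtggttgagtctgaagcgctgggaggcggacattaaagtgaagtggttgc
KIF14: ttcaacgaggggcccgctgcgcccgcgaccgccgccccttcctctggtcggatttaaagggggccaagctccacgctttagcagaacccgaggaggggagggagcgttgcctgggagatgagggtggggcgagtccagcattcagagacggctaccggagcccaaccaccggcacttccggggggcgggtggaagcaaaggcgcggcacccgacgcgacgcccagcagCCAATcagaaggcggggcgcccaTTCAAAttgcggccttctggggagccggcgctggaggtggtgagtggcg
KIF5B: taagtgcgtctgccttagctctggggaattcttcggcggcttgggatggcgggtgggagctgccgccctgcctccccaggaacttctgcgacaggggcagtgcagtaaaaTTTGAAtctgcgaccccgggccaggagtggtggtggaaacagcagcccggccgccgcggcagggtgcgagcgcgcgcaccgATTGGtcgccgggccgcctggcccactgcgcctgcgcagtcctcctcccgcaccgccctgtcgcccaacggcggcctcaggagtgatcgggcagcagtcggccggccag
In CENPA, CDCA8 and KIF18A the first base of TTTGAA lay 18, 23 and 10 bases before the start, and in KIF14 the match, on the other strand, began 1 base after the start, whereas in KIF5B it lay 140 bases before the start.

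The second question was what heat did to these genes. In the additive model 3 of 64 genes were called between 44 °C and 37 °C, against 6.11% of all genes. CENPL, a centromere protein that binds CENPA nucleosomes with CENPN, rose by 0.72 ± 0.12 (SE, 2 arrays at each temperature, adjusted p = 0.00572), from 5.65 and 5.65 at 37 °C to 6.39 and 6.35 at 44 °C, with 6.15 and 5.84 between them at 41.5 °C. CDCA7, a MYC and E2F target that helps to remodel chromatin, fell by 0.56 ± 0.08 (adjusted p = 0.00292), from 7.82 and 7.75 to 7.30 and 7.15, with 7.91 and 7.79 at 41.5 °C. CENPU, a centromere protein that docks the kinase PLK1, fell by 0.47 ± 0.12 (adjusted p = 0.0419), from 6.64 and 6.48 to 6.05 and 6.15, with 6.54 and 6.29 at 41.5 °C. In each of these genes the 44 °C arrays stood apart from the 37 °C arrays. All 3 calls were lost without the control (adjusted p from 0.066 to 0.351) and without the irradiated 37 °C array (adjusted p from 0.0692 to 0.224), that of CENPU also without the 44 °C array (adjusted p = 0.292), and only CENPL stayed called when the intensity trend was ignored.

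No mitotic kinesin was called at 44 °C, and the 13 values had a median of -0.10, against -0.040 over all genes. The pairs behind this differed: without radiation 11 of 13 were lower at 44 °C than in the control, with a median of -0.40, and with radiation 9 of 13 were higher than on the irradiated 37 °C array, with a median of 0.12. KIF20B, a cytokinesis motor, shows the first pattern, at 7.84 in the control and 7.29 at 44 °C, against 7.69 and 7.45 with radiation. Without the irradiated 44 °C array KIF20B was at -0.66 and KIF16B at -0.46. Without the other 44 °C array CENPA was at 0.68, CDCA2 at 0.61 and KIF14 at 0.67. Each of these fits leaves 1 array at 44 °C. Without either 41.5 °C array 8 genes of 64 were called, with KIF9, KIF16B, KIF20B, CENPN and CENPV added. Of all genes, 8.14% were called without the non-irradiated 41.5 °C array and 8.06% without the irradiated one. The transport kinesins had medians of -0.036 without and 0.018 with radiation. Among them KIF16B, an endosome motor, was at 7.83 and 7.72 at 37 °C and 7.38 and 7.50 at 44 °C, or -0.33 ± 0.09 (adjusted p = 0.0674).

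**Figure D4:**
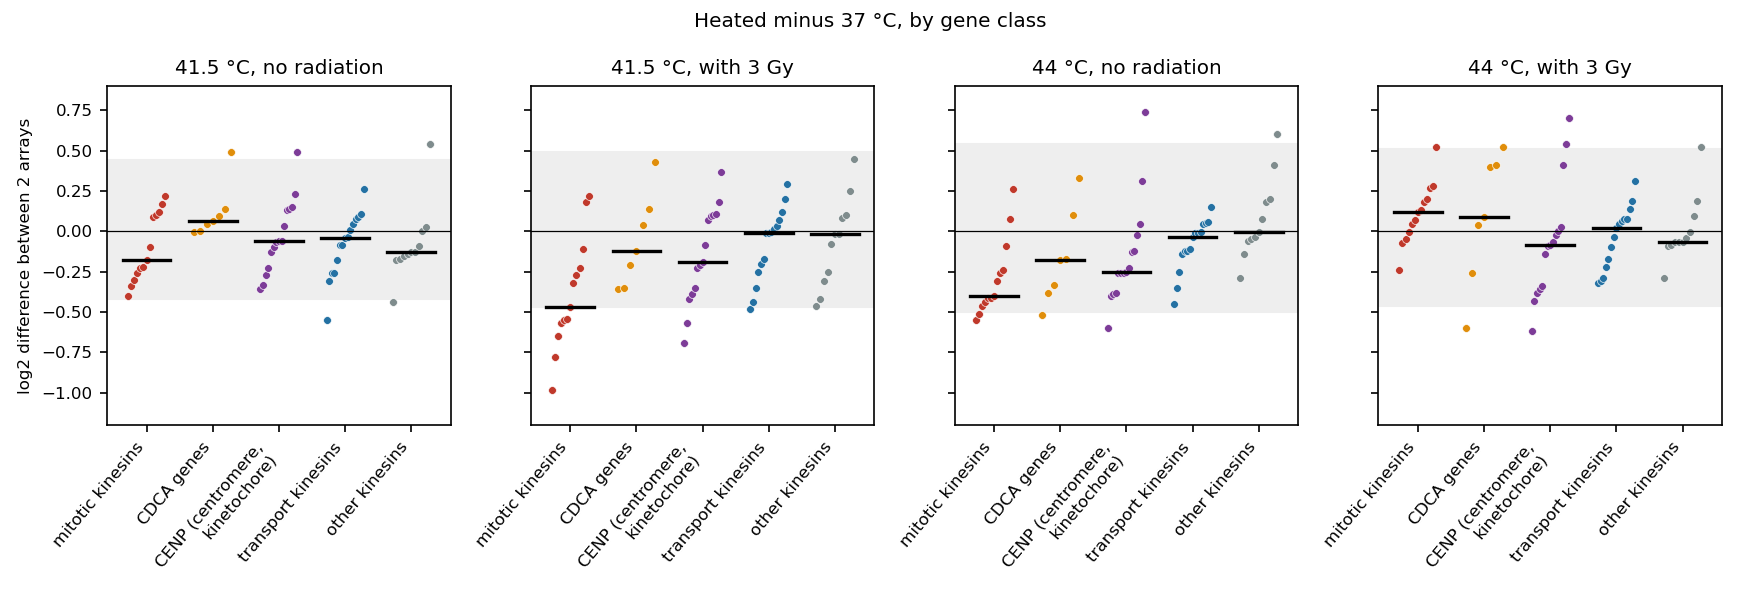
Log2 difference of a heated minus the matching 37 °C array for each gene (points), at 41.5 and 44 °C, without and with 3 Gy, with class medians (black bars) and the 5th to 95th percentile range of all genes (grey). Over the mitotic kinesins the medians are -0.18 and -0.47 at 41.5 °C without and with radiation, and -0.40 and 0.12 at 44 °C.

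Mild heat gave 2 calls of 64 between 41.5 °C and 37 °C, against 3.29% of all genes. CDCA4 rose by 0.46 ± 0.09 (adjusted p = 0.0232), from 6.86 and 6.77 at 37 °C to 7.34 and 7.20 at 41.5 °C, and was at 6.96 and 6.86 at 44 °C. KIF13B, a vesicle motor, fell by 0.49 ± 0.10 (adjusted p = 0.0232), from 7.47 and 7.31 to 6.93 and 6.87, and was at 7.22 and 7.33 at 44 °C. In both genes the 41.5 °C arrays stood apart from the other 4. Both calls were lost without any 1 of the 4 arrays at these temperatures (adjusted p from 0.0618 to 0.281) and with the trend ignored (0.163 and 0.174).

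The mitotic kinesins had 11 negative values of 13 at 41.5 °C, with a median of -0.27 against -0.004 over all genes, and none was called. Here too the pairs differed, with a median of -0.18 without radiation and -0.47 with it. The lowest value was that of KIF18A, -0.66 ± 0.21 (adjusted p = 0.14), made of -0.34 without and -0.98 with radiation. The pair without radiation had 0 of 64 genes lower at 41.5 °C by 1.5-fold or more, against 276 of all 14884 genes. The pair with radiation had 4, CENPA, KIF14, KIF18A and KIF20A, against 384 of all genes. Without either 44 °C array CENPI, KIF11, KIF14, KIF15 and KIF18A were called in addition. That gave 7 calls of 64, against 5.37% of all genes without the non-irradiated 44 °C array and 5.29% without the irradiated one. Set against the control, the combined 41.5 °C treatment left 13 of 64 genes lower by 1.5-fold or more, against 2.88% of all genes, with a median of -0.69 over the mitotic kinesins and -0.17 over the transport kinesins. After 44 °C with radiation the same medians were -0.22 and -0.086, and 1 gene, CDCA7, was that much lower, against 2.54% of all genes. Both sets share the control array.

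**Figure D5:**
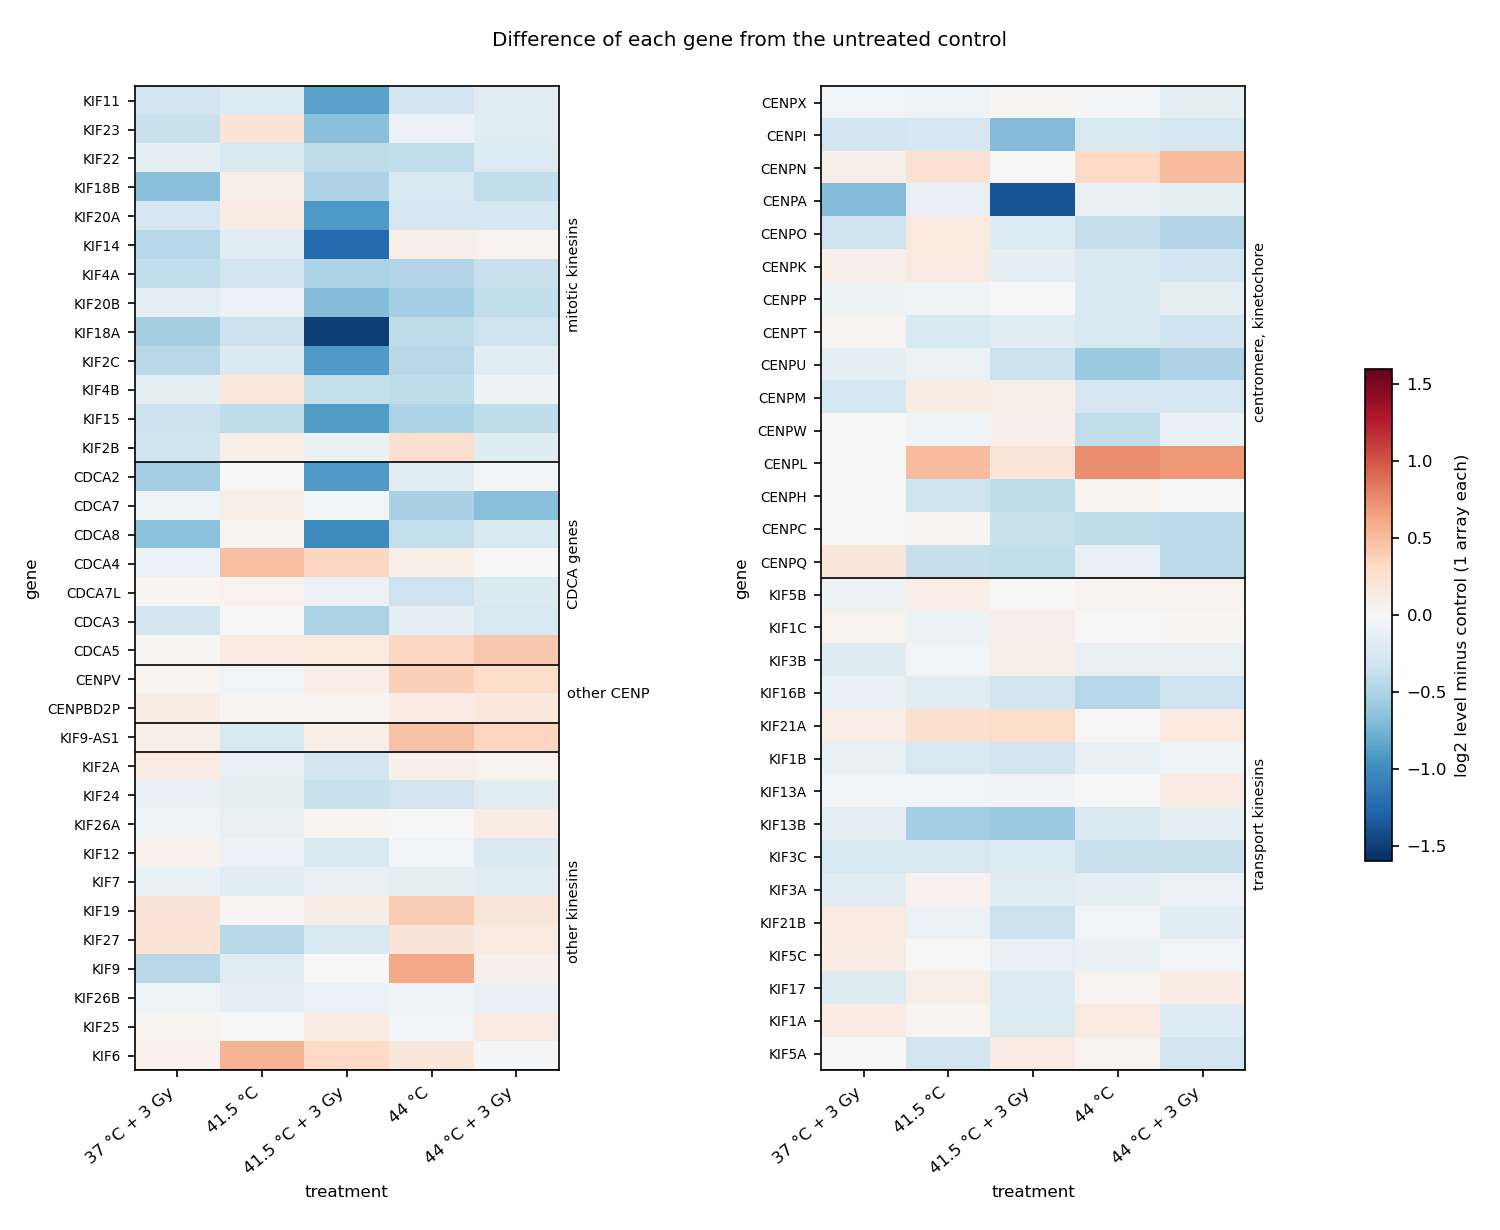
Log2 level of each of the 64 genes on the 5 treated arrays minus the control array (blue lower, red higher), by class. The column of 41.5 °C with 3 Gy is darkest blue, in KIF18A (-1.51), CENPA (-1.38) and KIF14 (-1.24), and CENPL is red in both 44 °C columns (0.74 and 0.70).

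The 2 heat levels were also compared directly, with 7 of 64 genes called, which is 10.9%, against 12.1% of all genes. KIF14 was higher at 44 °C by 0.78 ± 0.18 (adjusted p = 0.0215), KIF27, a relative of the Hedgehog regulator KIF7, by 0.51 ± 0.14 (adjusted p = 0.0405), KIF13B by 0.38 ± 0.10 (adjusted p = 0.0306) and CENPV, a centromere and microtubule protein, by 0.30 ± 0.09 (adjusted p = 0.0454). On its 4 heated arrays CENPV stood at 8.14 or lower at 41.5 °C and at 8.33 or higher at 44 °C. CDCA7 was lower by 0.63 ± 0.08 (adjusted p = 0.00102), CENPO by 0.39 ± 0.10 (adjusted p = 0.0305) and CDCA4 by 0.36 ± 0.09 (adjusted p = 0.0273). The value of KIF14 rested on the irradiated arrays: 0.25 without radiation and 1.30 with it. Its call was lost without either irradiated heat array, with values of 0.37 without the 41.5 °C one and 0.40 without the 44 °C one. Such fits leave 1 array at that temperature, and values moved both ways in them. Without the non-irradiated 41.5 °C array CENPA went from 0.62 to 1.06 and KIF18A from 0.56 to 1.03, while CENPO went from -0.39 to -0.30. Only CDCA7 stayed called with the trend ignored or without either 37 °C array. Rescaling ended other calls: those of CENPV (adjusted p = 0.0617) and KIF27 (0.0643) after a further quantile normalization, and those of CENPV (0.0989), KIF13B (0.0687) and KIF27 (0.0542) under median centring, while CENPM was added as lower. The split of higher and lower calls went from 4 and 3 to 2 and 4 and to 1 and 4. KIF27 has 3 features on the array, and with their mean its difference was 0.30 (adjusted p = 0.521).

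KIF1B has 2 features that differed after heat. The one used here, with the higher mean, had -0.031 between 44 and 37 °C, whereas the other was at 7.52 and 7.31 at 37 °C, 7.54 and 7.70 at 41.5 °C, and 6.66 and 6.43 at 44 °C, a difference of -0.87. With the mean of both features KIF1B was called at 44 °C. Which transcript each feature reads was not analysed here. KIF9, a motor of motile cilia, was at 4.53 and 4.09 at 37 °C, 4.35 and 4.54 at 41.5 °C, and 5.14 and 4.61 at 44 °C, or 0.56 ± 0.19 between 44 and 37 °C (adjusted p = 0.119). Its antisense RNA KIF9-AS1 was at 3.74 and 3.84, 3.48 and 3.83, and 4.21 and 4.09 in that order. Both lie below the median signal of all genes.

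The wider machinery was described with lists set by textbook role, with earlier results on G2 and M genes known. Of 24 kinetochore and checkpoint genes outside the rule, 7 were called lower with radiation at 37 and 41.5 °C and 0 higher, with a median of -0.26. Over all genes 0.316% were called lower and 0.269% higher, with a median of -0.003. NDC80, which binds microtubules at the kinetochore, fell by 0.71, PLK1, a mitotic kinase, by 0.70, SGO2, a protector of centromeric cohesion, by 0.76, and HJURP, the chaperone that deposits CENPA, by 0.56. BUB1, AURKB and INCENP made up the 7. Of 23 spindle and G2/M control genes, 8 were called lower and 0 higher, with a median of -0.46, among them the cyclins CCNF, at -1.07, and CCNB1, at -0.65, and KIFC1, a minus-end-directed mitotic kinesin outside the symbol rule, at -0.78. KIFC1 was at 7.62 and 6.93 at 37 °C, 7.61 and 6.75 at 41.5 °C, and 7.41 and 7.21 at 44 °C. None was called among 10 kinesin partners and KIFC motors or among 10 genes of dynactin and dynein regulators, with medians of -0.026 and 0.054. With so low a share called over all genes, 0 of 10 does not set these lists apart. The former were KLC1 to KLC4, the light chains of conventional kinesin, the adaptors KIFAP3, MAPK8IP1, MAPK8IP3 and KIFBP, and the motors KIFC2 and KIFC3. The latter were DCTN1 to DCTN6, of the dynactin complex, with NDE1, NDEL1, BICD1 and BICD2, and dynein's own subunits were not analysed here. At 44 °C the radiation pair had medians of 0.086, 0.005, 0.020 and 0.026 in these 4 lists, against 0.009 over all genes.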

How the data were processed

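The series matrix holds log2 values that the authors deposited, 53617 features on each of 6 arrays. They were made with Affymetrix Expression Console 1.1 and RMA, per the submitters' processing notes. RMA equalises the distributions of the arrays, so a change shared by most genes would not show. The labels name no genome build for the probes. Of the features, 16098 carry 1 gene symbol in the platform annotation. The feature with the highest mean stood for each of 14884 genes, and 779 genes had several. Fits used limma 3.58.1 in R 4.3.3 (lmFit, eBayes with an intensity trend), two-sided with Benjamini-Hochberg adjustment over all genes. The additive model had 2 residual degrees of freedom (prior 8.06) and the model with a separate radiation term at 44 °C had 1 (prior 11.4). The code was tested on simulated data. Separate cultures are not named in the labels. The p-values therefore measure only how these 6 arrays vary, possibly for technical reasons, and that number limits precision. Members, classes, lists and the split of the radiation term were chosen with earlier results of these data known. Named genes are members called in a comparison, the 2 highest and 2 lowest of each class, and a fixed set. A search for a protein motif was planned and not run. The closing section gives the alternatives: scaling, moderation, features per gene, a filter on dim genes, fold thresholds and leaving out arrays.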

Additional observations from a re-analysis of the deposited data

How the results depend on the processing

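Without the intensity trend, called genes numbered 1 of 64 (3 in the main analysis) for 44 against 37 °C, 0 (2) for 41.5 against 37 °C, 1 (7) for 44 against 41.5 °C and 0 (9) for radiation at 37 and 41.5 °C, while 2.72%, 0.0605%, 5.31% and 0% of all genes were called. Without the dimmest genes 53 of the 64 were fitted and the first of these counts was 6, while 12.4% of the genes fitted were called, against 6.11% in the main analysis. A further quantile normalization gave 5 calls in place of 0 for radiation at 44 °C minus radiation at 37 and 41.5 °C, as all genes called went from 0.0336% to 0.269%. Heat comparisons were refitted without 1 array of the third temperature. Calls then numbered 8 for 44 against 37 °C, 7 for 41.5 against 37 °C and 1 for 44 against 41.5 °C. Of all genes, 8.14%, 5.37% and 8.55% were called without its non-irradiated array, and 8.06%, 5.29% and 8.61% without its irradiated one. Leaving out an array of a compared temperature leaves 1 array there, and calls were lost or added in such fits. Radiation over 3 temperatures gave 0 calls without an array at 37 or 41.5 °C, with at most 0.0134% of all genes called. Without a 44 °C array, the fit that matches the second model, it gave 9, with 0.571% of all genes called. At 2-fold in place of 1.5-fold, the radiation pairs gave 0 genes at 37 °C, 5 at 41.5 °C and 0 at 44 °C, and at a difference of 25% in place of 50% they gave 13, 19 and 5, of which 0, 2 and 1 were higher with radiation. In either direction 0.269%, 0.490% and 0.121% of all genes passed 2-fold, and 14.4%, 15.2% and 11.6% passed 25%. Of the 9 genes called for radiation at 37 and 41.5 °C, 9 were also called after a further quantile normalization and without the dimmest genes, and 8 under median centring and with the mean of all features. The further quantile normalization added CENPI and KIF20A, for 11 calls of 64, while 1.07% of all genes were called. Under the scaling, feature and dim-gene alternatives, and with KIF2A counted as mitotic, 166 class medians moved by less than the median residual SD of 0.113 and 2, both of the other kinesins without the dimmest genes, moved more. No called value of a named gene changed sign under any alternative run. The model with separate radiation terms has no residual degrees of freedom once a 37 or 41.5 °C array is left out, so it was not run that way. Once a 44 °C array is left out, its 44 °C radiation term cannot be estimated. Its other radiation term is then that of the additive model without that array. No paired analysis was possible because the labels give no replicate numbers to serve as a block; the pairs of arrays in the radiation tests share a temperature, which is a term of each model.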
